A study of Mus musculus with 12 samples.

Results

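Hearts of diabetic mice infused with angiotensin IV were compared with hearts of non-diabetic control mice. The comparison took 8 of the 12 arrays of the study, 4 labelled diabetes mellitus with high-dose angiotensin IV (DM_AngIV) and 4 labelled negative control (NC), and covered 19505 genes, each read through the probe set with the highest mean when a gene had several. NC mice had received intraperitoneal vehicle on 5 days. DM_AngIV mice were given streptozotocin, which kills pancreatic beta cells, on 5 days, had entered the study with a fasting glucose of at least 16.7 mM 2 weeks later, and had then been infused with angiotensin IV at 2.88 mg/kg/day from the end of week 8 to the end of week 24. The other 4 arrays came from diabetic mice without the infusion (DM), made diabetic in the same way. The labels mark the tissue as myocardium and give 6 months beside all 3 groups. They give no strain, sex or hour of tissue collection for any group, and do not say whether NC or DM mice carried an infusion device. DM_AngIV mice differed from NC mice by diabetes and by the infusion together, so the effects of the 2 cannot be told apart in this comparison. Values of the DM arrays are given beside those of both groups to show where untreated diabetic hearts lay. DM against NC uses the same NC arrays, so the contrasts are not independent.

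Angiotensin IV is a small fragment of angiotensin II. Streptozotocin removes insulin, and a heart without insulin takes most of its energy from fatty acids, while FoxO transcription factors, which insulin signalling keeps out of the nucleus through the kinase AKT, gain access to genes of protein breakdown and stress resistance. Heart muscle also holds its own circadian clock, in which BMAL1 (gene Arntl) and CLOCK switch on the genes of their own repressors, the period and cryptochrome proteins and the REV-ERB receptors. The study set angiotensin IV against diabetic heart disease, and names FoxO1, fibrosis, autophagy and apoptosis among its themes.

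Expression values are log2 units from robust multi-array averaging, so a difference of 1 is a doubling of signal. Array medians lay between 4.12 and 4.19, and a gene is called above background on an array when it exceeds 4.96, the 95th percentile of 246 reporter control probe sets. Ventricular muscle genes were high on all 12 arrays, with the ventricular myosin light chain Myl2 between 11.71 and 11.90 and cardiac troponin T (Tnnt2) between 11.60 and 11.80. Atrial muscle was not evenly present. The atrial light chain Myl7 stood at 10.08 in NC 1 and 7.90 in NC 3, but at 4.28 and 3.72 in NC 2 and NC 4 and between 3.53 and 3.94 in the DM_AngIV arrays, below background. The mean over 10 atrial markers ranged from 5.15 to 7.59 in NC and from 5.03 to 5.27 in DM_AngIV, and Bmp10, another atrial marker, was below background on every array. In whole tissue, fewer cells of a type and less RNA per cell cannot be told apart, and this holds for every value that follows.

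In DM_AngIV hearts 142 genes rose and 56 fell against NC (limma, adjusted p below 0.05 over 19505 genes). These 198 genes make up 1.02% of all genes, 0.728% in the upward and 0.287% in the downward direction, and 2855 genes had an unadjusted p below 0.05. These shares stand beside the counts of calls in every list below. Of all genes 9464 had a positive difference and 10041 a negative one, the background for counts of signs. Members of a list may be regulated together, so their signs are not independent. The 4 DM_AngIV values lay wholly above or below the 4 NC values in 1918 genes, 9.83% of all, 1098 of them higher (5.63%) and 820 lower (4.2%). Genes named below for the largest rises and falls were picked among called genes without overlap, so their lack of overlap follows from that choice. The largest fitted differences among called genes were in Cyp1a1, Fkbp5, Zbtb16 and Etv5 upward and in Retnla, Arntl, Myl1 and Slc41a3 downward; 1 group was wholly below background for Cyp1a1, Retnla and Arntl, whose differences are therefore given later as bounds. Rises were found among clock genes (6), interferon-induced GTPases (4), class I antigen presentation genes (4) and genes induced by glucocorticoids (5), and fibrillar collagen Col3a1 was among the falls. DM hearts, tested against the same NC arrays, had 3 genes past the threshold, Arntl, Abat and Epha4 (limma, 0.0154% of the genes tested). Between DM_AngIV and DM 0 genes passed the threshold (limma, smallest adjusted p 0.253, 0% of the genes tested).

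**Figure D1:**
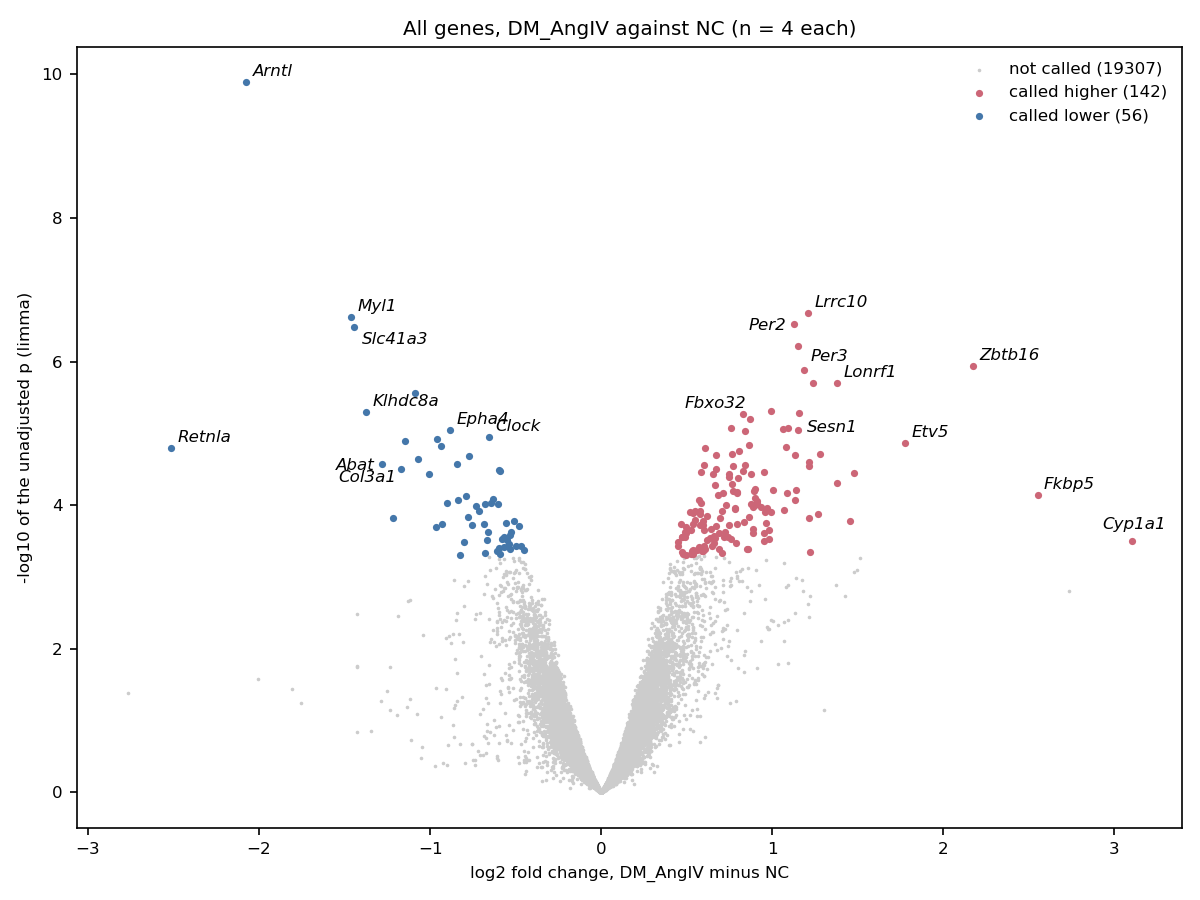
Log2 fold change of DM_AngIV minus NC (x axis) against -log10 of the unadjusted limma p (y axis) for 19505 genes, with 4 arrays in each group; red points are the 142 genes called higher, blue points the 56 called lower and grey points genes not called. Arntl stands alone at the top left, and Cyp1a1, Fkbp5 and Zbtb16 lie farthest to the right among the called genes.

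Each p-value sets a difference of group means against 1 estimate of the spread between mice, shared by all 3 groups. The number of arrays limits the precision of that estimate. A group can spread more or less than it, as for Cyp1a1, with an SD of 0.47 in NC and 1.99 in DM_AngIV. The number of calls depended on single arrays. Leaving out 1 of the 8 arrays at a time gave between 81 genes (without NC 2) and 167 genes (without DM_AngIV 1), and all 198 genes kept their sign in all of these fits. In all 8 fits 56 genes passed, 37 higher and 19 lower. Without NC 1 and NC 3, the control arrays with atrial signal, a setting chosen after seeing the data, 23 genes passed, 21 of them among the 198, while all 198 kept their sign and the median ratio of their log2 fold changes to those over all arrays was 1.02. With the mean of 3 atrial genes as a covariate 158 passed, 110 of them shared.

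The gene with the smallest adjusted p belongs to the circadian clock. As the labels give no hour of tissue collection, a difference in that hour between groups cannot be told apart from the clock gene differences below. Arntl, which encodes the activator BMAL1, was at 5.72, 5.94, 5.89 and 5.57 in NC 1 to NC 4 and at 3.52, 3.64, 3.55 and 4.10 in DM_AngIV 1 to 4. Every NC array was above background and no DM_AngIV array was, and the highest treated value lay well below the lowest control value. Arntl was thus at least 1.76-fold lower in DM_AngIV (means 5.78 ± 0.17 and 3.70 ± 0.27, SD, n = 4; limma adjusted p = 2.53e-06). The DM arrays, at 4.44, 4.21, 4.51 and 4.44, were also below background, so no order of the DM and DM_AngIV levels is read from them. Clock, the partner of BMAL1, read 7.75, 7.83, 7.87 and 7.79 in NC and 7.28, 7.20, 7.13 and 6.99 in DM_AngIV. It fell by 0.66 ± 0.10 (SE, n = 4 per group; limma adjusted p = 0.00951), with no overlap, and the DM mean lay between, 0.39 below NC.

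Among 10 repressors of the clock 4 rose. Per3, a period protein, stood at 5.56, 4.92, 5.39 and 5.56 in NC and at 6.74, 6.55, 6.50 and 6.39 in DM_AngIV, a rise of 1.19 ± 0.15 (SE; limma adjusted p = 0.00317). For Per2, another period protein, the NC values of 4.80, 4.38, 4.54 and 4.70 were all below background, whereas DM_AngIV read 5.71, 6.00, 5.54 and 5.68, so that Per2 was at least 1.71-fold higher (means 4.61 and 5.73; limma adjusted p = 0.00130). Nr1d2, which encodes the repressor REV-ERB beta, rose by 0.76 ± 0.12, from 6.91 to 7.38 across the NC arrays to 7.80 to 8.07 across the DM_AngIV arrays (limma adjusted p = 0.00834). All 3 genes separated the groups without overlap. Cry2, a cryptochrome, rose by 0.61 ± 0.14 (limma adjusted p = 0.0446), from between 5.72 and 6.24 to between 6.50 and 6.88.

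Among 7 output genes driven by the clock 2 rose. Wee1, a kinase that holds back cell division and is a direct clock target, was at 5.70, 5.80, 5.48 and 5.63 in NC and 6.36, 6.73, 6.54 and 6.42 in DM_AngIV, a rise of 0.86 ± 0.14 (limma adjusted p = 0.0102). Tef, a PAR bZIP transcription factor that carries clock timing to other genes, was below background on all NC arrays (4.36, 4.62, 4.73 and 4.72) and above it on all DM_AngIV arrays (5.12, 5.32, 5.38 and 5.21), at least 1.23-fold higher (limma adjusted p = 0.0128). Usp2, a deubiquitinase under clock control, came close at 0.67 (limma adjusted p = 0.0512), and Ciart, a further repressor, had 1.47 (0.0621) with NC 4 at 5.37 apart from 3.76 to 4.16 in the other NC arrays. Nr1d1, the REV-ERB alpha gene, did not follow Nr1d2: its value was −0.54 (limma adjusted p = 0.295). Dbp, the PAR bZIP factor with the widest daily swing in many tissues, had 0.56 ± 0.29 (0.388), and its NC values, 7.82, 8.17, 8.58 and 8.77, overlapped those of DM_AngIV, 9.36, 9.11, 8.88 and 8.23.

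Of 22 clock activators, repressors and output genes, 6 rose, 2 fell and 14 did not pass, and 17 had a positive value. The shares over all genes were 0.728% higher and 0.287% lower. Their median was 0.52, against −0.01 for all genes. By list the medians were −0.21 for 5 activators, 0.55 for 10 repressors and 0.65 for 7 output genes. The joint median thus mostly follows the repressors and output genes. Arntl, Clock, Per2, Per3, Nr1d2 and Wee1 passed in all 8 fits that left out 1 array. Tef lost its call without DM_AngIV 3 (limma adjusted p = 0.050006), and Cry2 lost it without any 1 of the 8 arrays (limma adjusted p up to 0.110). Without the 2 NC arrays with atrial signal 3 clock genes passed, Arntl, Per2 and Per3, and the median was 0.49.

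**Figure D2:**
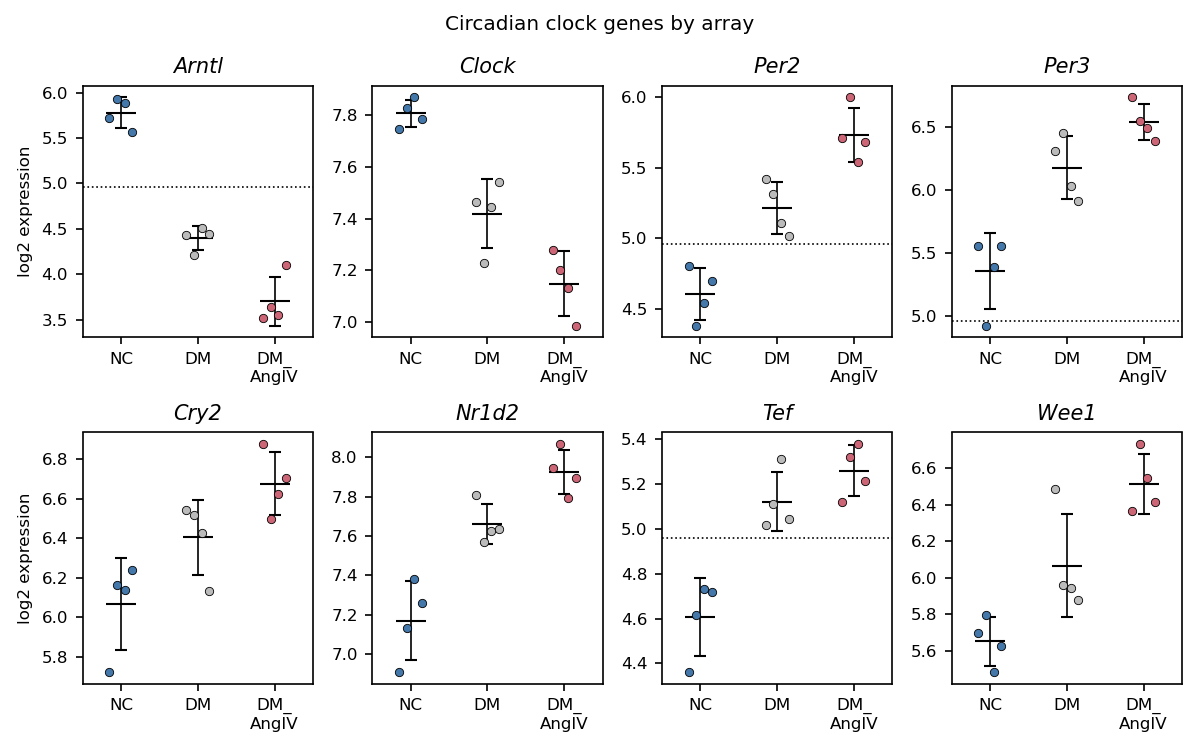
Log2 expression of 8 called clock genes on each array (points), with the mean and SD of 4 arrays per group (bars), for NC (blue), DM (grey) and DM_AngIV (red); the dotted line, where in range, is the background percentile of 4.96. Arntl and Clock step down and the other 6 genes step up from NC to DM_AngIV, and the plotted DM means lie between those of the other groups; for Arntl both diabetic groups are below background.

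BMAL1 and CLOCK bind the E-box CACGTG. Among 22 clock genes, 19 had promoter windows in RefSeq (build GRCm38.p6; 250 bases before to 50 bases after a transcript start) and 5 of them held that motif, Bhlhe41, Ciart, Cry1, Per1 and Tef. Over all 32851 windows 7.15% held the motif. The share was 13.7% of the 168 windows of genes that rose and 12.3% of the 65 windows of genes that fell. These percentages are shares of windows, not of genes, and a description with no test. Tef is shown because it is the called clock gene whose windows hold the motif. The E-box, which reads the same on both strands, is in capitals, 127 bases before the first start and 138 bases before the second. The first window is chr15:81802423-81802722 and the second chr15:81811164-81811463, both on the plus strand.
Tef window 1: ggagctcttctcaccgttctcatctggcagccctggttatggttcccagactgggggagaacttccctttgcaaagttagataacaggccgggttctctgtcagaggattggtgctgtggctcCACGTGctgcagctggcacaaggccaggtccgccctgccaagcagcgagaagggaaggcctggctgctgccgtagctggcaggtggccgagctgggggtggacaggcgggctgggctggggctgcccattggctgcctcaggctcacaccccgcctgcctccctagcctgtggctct
Tef window 2: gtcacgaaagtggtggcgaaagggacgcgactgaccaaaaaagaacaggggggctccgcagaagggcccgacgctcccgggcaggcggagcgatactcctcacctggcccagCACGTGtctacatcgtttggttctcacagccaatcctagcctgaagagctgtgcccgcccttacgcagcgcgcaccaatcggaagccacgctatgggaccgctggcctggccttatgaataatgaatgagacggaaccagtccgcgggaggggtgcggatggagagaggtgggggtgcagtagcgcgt

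Interferon-induced GTPases formed the group with the highest median of all lists, 0.80 over 11 genes against −0.01 for all genes. The lists were chosen with earlier results of these data known, so this rank is only a description. The GTPases are guanosine triphosphate-splitting enzymes that attack the vacuoles of intracellular microbes and are among the genes most strongly induced by interferon gamma. All 11 had a positive value and 4 passed, where 0.728% of all genes were called higher. Irgm2 read 5.65, 6.01, 5.98 and 5.93 in NC, 5.95, 5.93, 6.02 and 6.10 in DM, and 7.01, 6.47, 7.68 and 6.93 in DM_AngIV. The NC and DM values lay on top of each other and every DM_AngIV array stood above them. Irgm2 rose by 1.13 ± 0.19 against NC (SE; limma adjusted p = 0.0110). Its difference from DM was 1.02 but did not pass over all genes (limma adjusted p = 0.253).

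The other 3 called GTPases also separated the groups. Irgm1, a regulator of the family, was at 5.96, 5.71, 5.90 and 5.96 in NC and at 7.09, 6.40, 7.36 and 6.96 in DM_AngIV, a rise of 1.06 ± 0.16 (limma adjusted p = 0.00834). For Iigp1, an effector GTPase, the values were 6.15, 5.88, 5.82 and 5.45 in NC and 6.92, 6.47, 7.65 and 7.11 in DM_AngIV, a rise of 1.21 ± 0.20 (limma adjusted p = 0.0125). Igtp, also known as Irgm3, rose by 0.98 ± 0.21, from 5.60, 5.59, 5.34 and 5.52 to 6.36, 5.84, 7.13 and 6.63 (limma adjusted p = 0.0372). In all 4 genes DM_AngIV 3 was the highest array and DM_AngIV 2 the lowest, and SDs ran from 0.40 to 0.54 in DM_AngIV and from 0.12 to 0.29 in NC, a difference that was not tested. In DM the 4 genes differed from NC by −0.27 to 0.25.

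The remaining 7 GTPases, Tgtp2 and 6 guanylate-binding proteins, did not pass; Gbp8 was below background in both groups and the others had values between 0.43 (Gbp9) and 0.86 (Tgtp2), with Tgtp2 at a limma adjusted p of 0.0621. Irgm1, Irgm2 and Iigp1 passed without any 1 array. Igtp passed only without DM_AngIV 2 and lost its call without each of the other 7 arrays (limma adjusted p up to 0.103). Without NC 1 and NC 3 none of the 11 passed, at a median of 0.94.

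The class I antigen presentation list, covering the display of peptides on the cell surface to cytotoxic T cells, gave 4 rises. H2-K1, a class I heavy chain, read 8.55, 8.27, 8.41 and 8.28 in NC and 9.28, 8.99, 9.39 and 8.93 in DM_AngIV, a rise of 0.77 ± 0.13 (SE; limma adjusted p = 0.0126). The light chain B2m was at 10.70, 10.71, 10.78 and 10.74 in NC and at 11.50, 11.11, 11.47 and 11.16 in DM_AngIV, a rise of 0.58 ± 0.11 (limma adjusted p = 0.0236). Both genes separated the groups. The heavy chain H2-D1 rose by 0.74 ± 0.13 (limma adjusted p = 0.0128) and Tap1, a subunit of the transporter that carries peptides to class I molecules, by 0.69 ± 0.15 (limma adjusted p = 0.0446). In all, 4 of 15 genes rose and 0 fell, 14 had a positive value, and the median was 0.39. For all 19505 genes the share called higher was 0.728%, and 9464 had a positive value. Among the 11 that did not pass, H2-T22 had 0.72 (limma adjusted p = 0.0515), and the inducible proteasome subunits Psmb8, Psmb9 and Psmb10 had 0.15, 0.32 and 0.42 (0.711, 0.352 and 0.229). H2-K1 and H2-D1 passed in all 8 fits that left out 1 array. B2m lost its call without NC 1, NC 2, NC 4, DM_AngIV 1 or DM_AngIV 3 (limma adjusted p up to 0.0892), and Tap1 passed only without DM_AngIV 2 (otherwise up to 0.133). Heavy chain genes of this family are close copies of each other, so a probe set may also read a related gene.

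The wider interferon response list gave 1 call, beside 0.728% called higher over all genes. Of 28 genes only Ifit2, which blocks translation of viral messages, passed: it was below background in NC at 4.49, 3.56, 3.87 and 4.30 and at 5.36, 4.83, 5.20 and 5.15 in DM_AngIV, at least 1.13-fold higher (limma adjusted p = 0.0102). Ifit1, below background on all NC arrays, did not pass (means 3.68 and 4.67; limma adjusted p = 0.117), Irf7, a factor that amplifies interferon output, was below background in both groups, and 24 of the 28 had a positive value, with a median of 0.28. Class II genes, which interferon gamma also induces in immune cells, had 0 of 8 past the threshold and their median was −0.08. Markers of immune cells were measured beside these groups. Of the 8 neutrophil, 12 T and NK cell and 8 B cell markers 0 were above background in either group, and 12 of the 15 markers of macrophages and monocytes were positive and 0 passed, with a median of 0.28 and a mean level of 5.12 to 5.26 in NC and 5.30 to 5.63 in DM_AngIV. The part of macrophages in these rises was not tested.

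**Figure D3:**
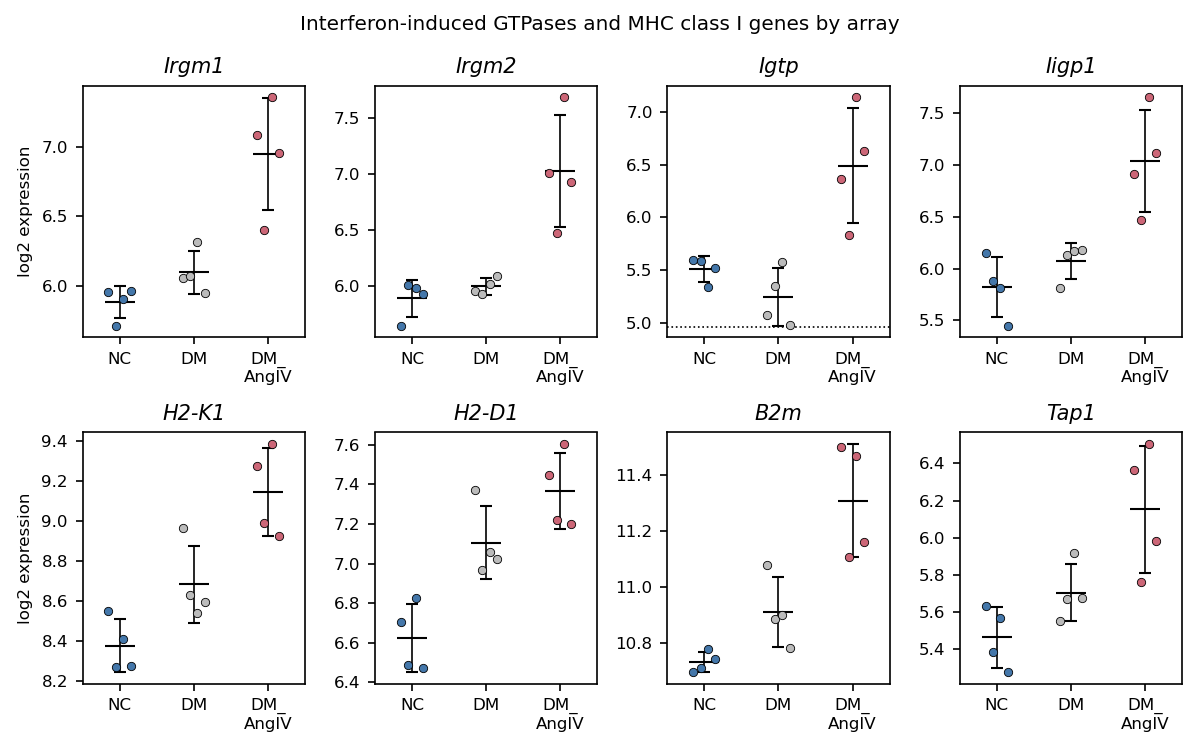
Log2 expression of 4 interferon-induced GTPases (upper row) and 4 class I presentation genes (lower row) on each array, with the mean and SD of 4 arrays per group, for NC (blue), DM (grey) and DM_AngIV (red). DM_AngIV 3 is the highest array for all 4 GTPases, and the DM means of the GTPases lie near those of NC.

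All 7 GTPases with a RefSeq promoter window held GAAA, then any 2 bases, then GAAA, searched on both strands. These are the core letters of the interferon-stimulated response element. The element stood in 3.44% of all 32851 windows, 5.95% of the 168 windows of genes that rose and 0% of the 65 windows of genes that fell. These percentages are shares of windows, not of genes. The list holds genes known to be induced by interferon, so the matches are a description with no test. Of the 14 class I genes with a window 5 held the element, B2m among them. The 3 called GTPases with a window are shown because their letters can be compared. Capitals mark that element. The windows are chr11:58199306-58199605 (Igtp, plus strand), chr11:58214727-58215026 (Irgm2, plus strand) and chr11:48871371-48871670 (Irgm1, minus strand), in GRCm38.p6.
Igtp: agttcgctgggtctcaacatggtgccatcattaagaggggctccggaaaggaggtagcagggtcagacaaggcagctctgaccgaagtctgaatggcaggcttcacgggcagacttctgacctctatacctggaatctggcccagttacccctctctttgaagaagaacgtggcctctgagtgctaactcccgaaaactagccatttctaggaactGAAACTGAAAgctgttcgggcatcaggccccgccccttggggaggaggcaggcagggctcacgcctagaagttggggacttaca
Irgm2: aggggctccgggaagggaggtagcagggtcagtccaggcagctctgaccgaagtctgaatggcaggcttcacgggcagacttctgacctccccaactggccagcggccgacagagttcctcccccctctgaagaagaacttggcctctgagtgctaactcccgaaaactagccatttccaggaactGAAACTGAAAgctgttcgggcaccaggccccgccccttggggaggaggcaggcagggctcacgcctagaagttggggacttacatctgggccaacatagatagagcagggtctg
Irgm1: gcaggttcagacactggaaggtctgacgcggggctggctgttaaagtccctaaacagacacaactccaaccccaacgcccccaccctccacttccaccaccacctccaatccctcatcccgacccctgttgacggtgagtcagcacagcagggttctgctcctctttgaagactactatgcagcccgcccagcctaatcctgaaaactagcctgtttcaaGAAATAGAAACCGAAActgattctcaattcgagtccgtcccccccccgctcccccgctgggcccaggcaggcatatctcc
In Igtp the response element begins 34 bases before the start, and in Irgm2 64 bases before it. The windows of these neighbouring genes share an unbroken run of 61 bases. Irgm1 holds overlapping matches of the response element that begin 30 and 24 bases before the start, and its longest run in common with either of the others is 11 bases. These are matches of letters, and no binding was measured.

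Genes induced by glucocorticoids, adrenal stress hormones that act through a nuclear receptor in heart muscle, gave 5 rises. Fkbp5, a co-chaperone that restrains the glucocorticoid receptor, was at 6.35, 4.88, 5.93 and 5.77 in NC and at 7.64, 8.69, 8.25 and 8.55 in DM_AngIV. The rise was 2.55 ± 0.47 (SE, n = 4 per group; limma adjusted p = 0.0192), a 5.86-fold difference. Zbtb16, the transcription factor PLZF, read 7.26, 6.51, 7.16 and 6.91 in NC and between 8.95 and 9.37 in DM_AngIV, a rise of 2.17 ± 0.28 or 4.51-fold (limma adjusted p = 0.00317). Untreated diabetic arrays were split for both genes. DM 1 and DM 2 reached 8.69 and 7.76 for Fkbp5, and 9.48 and 8.82 for Zbtb16. DM 3 and DM 4 were lower, at 6.02 and 6.24, and at 7.99 and 7.85. For Fkbp5 these lower values lay within the NC range, whereas for Zbtb16 all 4 DM arrays lay above the highest NC array.

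The metallothioneins, small proteins that bind zinc and copper and are induced by both metals and glucocorticoids, also rose. Mt2 was at 8.94, 8.03, 8.03 and 7.70 in NC and 9.39, 9.02, 9.35 and 9.77 in DM_AngIV (1.21 ± 0.24; limma adjusted p = 0.0264), and Mt1 rose by 0.70 ± 0.14 (limma adjusted p = 0.0236). Both were as high in DM, 1.49 and 0.70 above NC (limma adjusted p = 0.0843 and 0.105). The sulfotransferase Sult1a1 rose by 1.22 ± 0.27 (limma adjusted p = 0.0466). Of the 20 genes in this list 5 rose, 0 fell and 15 had a positive value, with a median of 0.51. Calls over all genes came to 0.728% higher and 0.287% lower. Some other textbook targets did not pass: Tsc22d3, the anti-inflammatory GILZ, had 0.84 (limma adjusted p = 0.185), Per1 0.49 (0.193), Klf9 0.48 (0.167) and the kinase Sgk1 −0.21 (0.605). The list does not hold every gene that glucocorticoids induce, and Dusp1, counted below with the immediate early genes, fell by 0.71 (limma adjusted p = 0.0236). The receptor gene Nr3c1 had −0.09 (0.733).

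Zbtb16 passed in all 8 fits that left out 1 array. Fkbp5 lost its call without NC 2, DM_AngIV 2, DM_AngIV 3 or DM_AngIV 4 (limma adjusted p up to 0.0680). Mt1 passed without NC 2, DM_AngIV 1 or DM_AngIV 3 alone (otherwise up to 0.0806), Mt2 without NC 1 or DM_AngIV 2 (up to 0.0868) and Sult1a1 without NC 3 or DM_AngIV 1 (up to 0.131).

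Among FoxO factors and their targets 4 genes rose and 1 fell, and Foxo1 itself did not pass. Foxo1 read 5.74, 5.51, 5.41 and 5.66 in NC and 5.72, 5.25, 5.73 and 5.72 in DM_AngIV, a difference of 0.02 ± 0.14 (SE; limma adjusted p = 0.965). Foxo3, its paralog, rose by 0.55 ± 0.11, from between 5.54 and 5.77 to between 5.98 and 6.36 (limma adjusted p = 0.0236). Fbxo32, the muscle ubiquitin ligase atrogin-1, was at 7.59, 7.46, 7.57 and 7.61 in NC and at 8.25, 8.35, 8.34 and 8.60 in DM_AngIV. The groups were tight and far apart, and the rise was 0.83 ± 0.12 (limma adjusted p = 0.00699).

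Sesn1, a sestrin that curbs mTORC1, stood at 8.48, 8.22, 8.25 and 8.40 in NC and 9.27, 9.37, 9.47 and 9.83 in DM_AngIV, a rise of 1.15 ± 0.18 (limma adjusted p = 0.00834). Cited2, a transcriptional co-regulator that limits hypoxia signalling, rose by 1.21 ± 0.21 (limma adjusted p = 0.0126). In the same list Tgfb1i1, the focal adhesion protein HIC-5, was at least 1.20-fold lower, with no DM_AngIV array above background (limma adjusted p = 0.0425). The ubiquitin ligase Trim63 had 0.64 (limma adjusted p = 0.0727), the circadian and glucocorticoid-responsive factor Klf15 0.67 (0.0621) and the mitophagy receptor Bnip3 0.56 (0.110). Of 30 genes 4 rose, 1 fell and 24 had a positive value, and the median was 0.35. Among all genes 0.728% were called higher and 0.287% lower. Fbxo32, Sesn1 and Cited2 passed without any 1 array. Foxo3 passed only without DM_AngIV 1 (otherwise up to 0.0881), and Tgfb1i1 in none of the 8 fits (limma adjusted p up to 0.121). Without NC 1 and NC 3 none of the 30 passed, and the median was 0.38. The FoxO motif GTAAACA stood in windows of 5 of the 24 list genes with a promoter window, Sesn1 and Trim63 among them. It stood in 3.65% of all windows, 3.57% of those of genes that rose and 1.54% of those of genes that fell, and these are shares of windows, not of genes.

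Insulin signalling genes were examined beside them. Pik3ip1, named for its large rise and not on the signalling list, an inhibitor of phosphatidylinositol 3-kinase, averaged 7.52 in NC, where its highest array was at 7.95, and was at 8.45, 8.81, 8.71 and 9.21 in DM_AngIV, a rise of 1.28 ± 0.21 that held without any 1 array (limma adjusted p = 0.0110). Pik3r1, the regulatory subunit p85 of that kinase, rose by 0.87 ± 0.17 (limma adjusted p = 0.0218), and Eif4ebp1, which blocks the start of translation until mTORC1 phosphorylates it, rose by 0.79 ± 0.17 (limma adjusted p = 0.0396). The NC values of Eif4ebp1 spanned only 7.25 to 7.32, against 7.75 to 8.49 in DM_AngIV. Insr, the insulin receptor, had 0.52 (limma adjusted p = 0.0727) and Akt1 0.39 (0.0843). Of 22 insulin and IGF1 signalling genes 2 rose and 0 fell, at a median of 0.10, beside 0.728% called higher over all genes. Pik3r1 lost its call without NC 2, NC 4, DM_AngIV 2, DM_AngIV 3 or DM_AngIV 4 (limma adjusted p up to 0.0753), and Eif4ebp1 passed only without DM_AngIV 1 (otherwise up to 0.118).

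**Figure D4:**
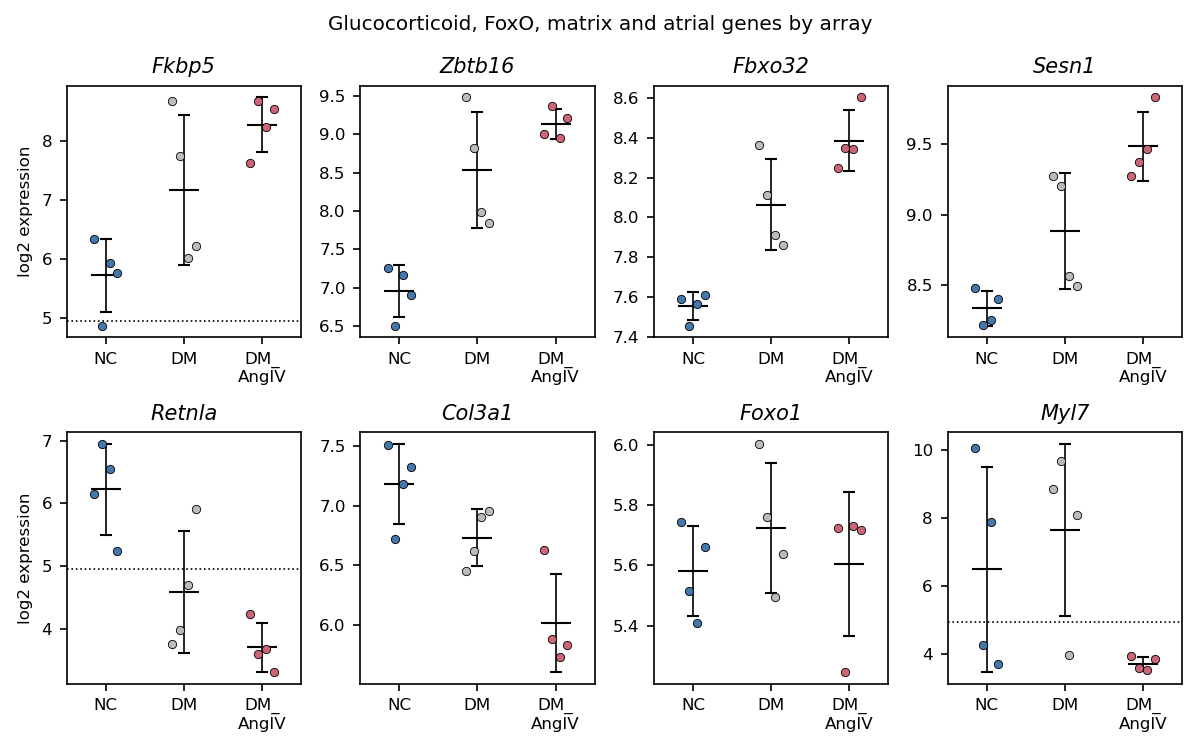
Log2 expression of glucocorticoid-induced (Fkbp5, Zbtb16), FoxO-related (Fbxo32, Sesn1, Foxo1), macrophage-type (Retnla), collagen (Col3a1) and atrial (Myl7) genes on each array, with the mean and SD of 4 arrays per group, for NC (blue), DM (grey) and DM_AngIV (red); the dotted line, where in range, is the background percentile of 4.96. Fkbp5, Zbtb16, Fbxo32 and Sesn1 separate NC from DM_AngIV, Foxo1 overlaps in all groups, and Myl7 is high on 2 NC and 3 DM arrays and on no DM_AngIV array.

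Beyond these groups, a rise was found in Cyp1a1, the aryl hydrocarbon receptor target that oxidises foreign aromatic compounds. It was below background in NC at 3.19, 2.81, 2.42 and 2.10. In DM_AngIV it read 3.43, 5.67, 5.52 and 8.30, so that DM_AngIV 1 was also below background and DM_AngIV 4 stood far above the rest. Cyp1a1 was at least 1.71-fold higher (means 2.63 ± 0.47 and 5.73 ± 1.99, SD, n = 4; limma adjusted p = 0.0380). It passed only without DM_AngIV 1 or DM_AngIV 4 among the 8 fits (otherwise up to 0.0928). In DM it was at 5.93, 4.70, 5.30 and 4.78. Other targets of the receptor did not pass, with Nqo1 at 0.27 (limma adjusted p = 0.516) and Cyp1b1 below background in both groups. Fmo2, a flavin monooxygenase of the same list, rose by 1.46 ± 0.29 (limma adjusted p = 0.0281), with NC between 6.84 and 7.76 and DM_AngIV at 8.53, 8.25, 8.83 and 8.75, but passed only without NC 1 or DM_AngIV 2 when 1 array was left out (otherwise up to 0.0923).

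Etv5, an ETS transcription factor downstream of growth factor and ERK signalling, read 3.82, 4.97, 4.72 and 4.83 in NC, where only NC 2 reached background, and 6.21, 6.46, 6.54 and 6.25 in DM_AngIV. It rose by 1.78 ± 0.28 (SE; limma adjusted p = 0.0102) and passed without any 1 array. Dusp4, a phosphatase that limits ERK, was below background on all NC arrays and did not pass (means 3.91 and 5.29, at least 1.25-fold higher; limma adjusted p = 0.0752), and the relatives Etv1 and Etv4 had 0.41 and −0.20 (0.485 and 0.572), and Etv5 alone of 11 genes in this list passed. Rasgef1b, an exchange factor for Ras-family GTPases, rose by 1.48 ± 0.26 (limma adjusted p = 0.0128), with NC 1 the only NC array above background. Bcl2l1, which encodes the survival protein BCL-XL, was at 6.02, 5.24, 5.83 and 5.79 in NC and 6.50, 7.27, 6.97 and 7.21 in DM_AngIV, a rise of 1.27 ± 0.25 (limma adjusted p = 0.0245), and lost its call without NC 2, NC 4, DM_AngIV 2, DM_AngIV 3 or DM_AngIV 4 (up to 0.0824).

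Among the other large rises were Lonrf1, a RING finger gene, at least 1.79-fold higher with no NC array above background (limma adjusted p = 0.00393), Rhobtb1 at 1.24 ± 0.17 (limma adjusted p = 0.00393), and Fam117b, at 1.38 ± 0.25 (limma adjusted p = 0.0161). Lonrf1, Rhobtb1 and Rasgef1b passed without any 1 array, and Fam117b lost its call without NC 2, DM_AngIV 3 or DM_AngIV 4 (up to 0.0583).

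Among the falls was Retnla, which encodes RELM alpha, a secreted protein of alternatively activated macrophages. It was above background on every NC array, at 6.16, 6.94, 6.55 and 5.25, and on no DM_AngIV array, at 4.25, 3.61, 3.68 and 3.31. Retnla was at least 2.40-fold lower in DM_AngIV (means 6.22 ± 0.73 and 3.71 ± 0.39, SD, n = 4; limma adjusted p = 0.0102) and passed without any 1 array. In DM it was at 3.76, 3.98, 4.70 and 5.91. Of the 15 macrophage and monocyte markers 12 were positive, 3 were negative and 0 passed. Cd163, a scavenger receptor of resident macrophages, had 1.18 (limma adjusted p = 0.0810), with only 1 NC array above background. Mrc1 and Csf1r had 0.32 and 0.34 (limma adjusted p = 0.614 and 0.380). The part of macrophages in the fall of Retnla was not tested.

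Myl1, the alkali myosin light chain of fast skeletal muscle, was at 7.96, 7.87, 7.70 and 7.60 in NC, at 7.15, 6.83, 6.75 and 6.92 in DM and at 6.32, 6.88, 6.09 and 6.00 in DM_AngIV. The fall against NC was 1.46 ± 0.17 on the log2 scale (SE; limma adjusted p = 0.00130). Slc41a3, a mitochondrial magnesium exporter, fell from 7.99, 8.22, 8.21 and 8.05 to 6.73, 6.62, 6.55 and 6.79, by 1.44 ± 0.17 (limma adjusted p = 0.00130). Both genes passed without any 1 array. Of 13 magnesium transport genes 1 other passed, the channel kinase Trpm7, which rose by 0.67 ± 0.14 (limma adjusted p = 0.0361) but passed in none of the 8 fits that left out 1 array (up to 0.106).

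Abat and Epha4 fell against NC in both diabetic groups. Abat, the mitochondrial transaminase that breaks down the transmitter GABA, read 7.06, 7.46, 7.46 and 7.36 in NC, 5.15, 5.16, 5.66 and 5.95 in DM and 6.73, 5.74, 5.76 and 5.97 in DM_AngIV. It fell by 1.28 ± 0.22 against NC in DM_AngIV (limma adjusted p = 0.0126) and by 1.86 in DM (limma adjusted p = 0.00316), and the 0.57 between DM_AngIV and DM did not pass (limma adjusted p = 0.620). Epha4, an ephrin receptor, was at 6.54, 6.62, 6.81 and 6.62 in NC and 5.90, 5.45, 5.64 and 6.07 in DM_AngIV, a fall of 0.88 ± 0.14 (limma adjusted p = 0.00834). It was the only gene called among 18 Eph receptors and ephrins, and Abat the only one among 18 genes of branched-chain amino acid breakdown and related steps. Both passed without any 1 array.

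The remaining large falls were in Klhdc8a, a kelch domain gene, at least 1.80-fold lower with no DM_AngIV array above background (limma adjusted p = 0.00699), Trp53i11 at −1.07 ± 0.18 (limma adjusted p = 0.0117), Tnfaip2 at −1.01 ± 0.18 (limma adjusted p = 0.0128), Lrrc3b at −1.22 ± 0.24 (limma adjusted p = 0.0266) and the receptor gene Mrgprh, at least 1.33-fold lower (limma adjusted p = 0.0101). Foxs1 was also called lower (limma adjusted p = 0.0303) but was below background in both groups, so no fold is given. Lrrc3b passed only without NC 1 or DM_AngIV 2 (otherwise up to 0.0825) and Foxs1 only without DM_AngIV 3 (otherwise up to 0.0948).

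Among 55 matrix and fibrosis genes 3 fell and 1 rose, where 0.287% of all genes were called lower and 0.728% higher. Col3a1, the fibrillar collagen of type III, was at 7.51, 6.72, 7.18 and 7.33 in NC and at 6.63, 5.88, 5.73 and 5.83 in DM_AngIV. DM_AngIV 1 stood apart from the other treated arrays yet lay below the lowest control array, and the fall was 1.17 ± 0.20 (SE; limma adjusted p = 0.0128), or 2.25-fold. Col6a2, a chain of the pericellular collagen VI, fell by 0.63 ± 0.12, from between 6.25 and 6.43 to between 5.43 and 6.00 (limma adjusted p = 0.0207). Serpinh1, the collagen chaperone HSP47, fell by 0.73 ± 0.14, from between 7.36 and 7.72 to between 6.57 and 7.22 (limma adjusted p = 0.0225).

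Timp3, a matrix-bound inhibitor of metalloproteinases, rose, from 6.98, 6.18, 6.44 and 6.37 to 7.54, 7.62, 7.55 and 7.61, by 1.09 ± 0.20 (limma adjusted p = 0.0189). Col1a1, the main chain of collagen I, had −0.42 (limma adjusted p = 0.226), the matricellular gene Postn −0.51 (0.505), fibronectin Fn1 −0.41 (0.406) and the growth factor Tgfb1 0.06 (0.883). Of 19 collagens 2 fell and 0 rose, 18 had a negative value and the median was −0.34, and of 36 other matrix genes 1 rose and 1 fell at a median of −0.05. Col3a1 passed without any 1 array. Col6a2 lost its call without NC 1, NC 2, NC 4, DM_AngIV 3 or DM_AngIV 4 (up to 0.0669), Serpinh1 without NC 3, NC 4, DM_AngIV 2, DM_AngIV 3 or DM_AngIV 4 (up to 0.0813), and Timp3 without NC 2, NC 4, DM_AngIV 2, DM_AngIV 3 or DM_AngIV 4 (up to 0.0670).

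Atrial and fibroblast markers were examined beside the matrix genes. The 10 atrial markers had 9 negative values, a median of −0.52 and 0 calls. The 11 fibroblast markers, 3 of them collagens, had 8 negative values and a median of −0.28, with mean levels of 7.31 to 7.73 in NC and 7.06 to 7.38 in DM_AngIV. The 8 fibroblast markers other than collagens ran from −0.44 (Dpt) to 0.57 (Dpep1), neither of which overlapped between groups or passed (limma adjusted p = 0.217 and 0.186), with Pi16 at −0.41, Mfap5 at −0.35, Tcf21 at −0.06, Lum at −0.02, Dcn at 0.06 and Gsn at 0.25. With the atrial covariate the collagens had a median of −0.28 and the same 2 calls, but the median of all 55 matrix genes went from −0.18 to 0.02. Without NC 1 and NC 3 the collagen median was −0.27 with 0 calls.

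Autophagy and apoptosis genes, the other themes of the study, gave 1 call, where 1.02% of all genes were called in either direction. Of 32 autophagy and lysosome genes 0 passed, with a median of 0.05. Map1lc3b, the LC3B protein of autophagosome membranes, read 8.55, 8.65, 8.64 and 8.71 in NC and 9.04, 8.93, 9.02 and 9.15 in DM_AngIV, which did not overlap, a difference of 0.40 ± 0.11 (SE; limma adjusted p = 0.114). The cargo receptor Sqstm1 had 0.41 (limma adjusted p = 0.102), the initiating kinase Ulk1 0.49 (0.114) and Becn1 0.06 (0.839). Of 20 pro-apoptotic genes 0 passed at a median of −0.06, and of 12 anti-apoptotic genes Bcl2l1 alone passed, with Mcl1 at 0.32 (limma adjusted p = 0.142) and Bcl2 at 0.06 (0.888). Of 15 genes of the renin-angiotensin system 0 passed, and the angiotensin II receptor Agtr1a had 0.27 (limma adjusted p = 0.345).

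Fuel genes were examined next. Pnpla2, the lipase that starts the breakdown of stored triglyceride, was at 9.64, 9.85, 9.74 and 9.74 in NC and 10.20, 10.62, 10.51 and 10.63 in DM_AngIV, a rise of 0.75 ± 0.13 (SE; limma adjusted p = 0.0137). Dgat2, which makes triglyceride, rose by 0.57 ± 0.11 (limma adjusted p = 0.0207), and Cpt1a, an isoform of the enzyme that commits fatty acids to mitochondrial oxidation, by 0.86 ± 0.19 (limma adjusted p = 0.0446). The DM arrays were close to DM_AngIV for Pnpla2 and Cpt1a, 0.58 and 0.73 above NC. Among 47 fatty acid genes these 3 rose and 0 fell, 36 had a positive value and the median was 0.20. Over all genes 0.728% were called higher and 0.287% lower. Cpt1b, the main muscle isoform, had 0.31 (limma adjusted p = 0.193) and the thioesterase Acot1 0.98 (0.134). Of 25 genes of glucose uptake and glycolysis, 10 of pyruvate dehydrogenase control and 37 of the respiratory chain 0 passed, at medians of 0.03, 0.20 and −0.01. Pnpla2 lost its call without DM_AngIV 4 (0.0525), Dgat2 without NC 1, NC 2, DM_AngIV 2 or DM_AngIV 4 (up to 0.0721), and Cpt1a passed only without DM_AngIV 1 (otherwise up to 0.129).

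In the contractile apparatus, Myom2, an M-band protein, rose by 0.87 ± 0.15, from 9.56, 9.70, 9.85 and 9.89 to 10.36, 10.63, 10.73 and 10.78 (limma adjusted p = 0.0128). Tcap, the titin cap protein of the Z-disc, rose by 0.78 ± 0.15, from between 8.69 and 9.29 to between 9.52 and 9.99 (limma adjusted p = 0.0228), and lost its call without NC 1, NC 2, DM_AngIV 1 or DM_AngIV 2 (up to 0.0748). The other 17 of 19 sarcomere genes did not pass, and the list median was 0.11. Myh7, the slow myosin heavy chain that mouse ventricle re-expresses under load, read 10.27, 9.75, 10.22 and 10.01 in NC and 10.98, 10.82, 11.44 and 11.57 in DM_AngIV. These did not overlap, and the difference of 1.14 ± 0.28 fell short of the threshold (limma adjusted p = 0.0675). The natriuretic peptide genes Nppa and Nppb had −0.35 and −0.27 (limma adjusted p = 0.904 and 0.825). Of 20 calcium handling genes 0 passed.

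Immediate early genes, which respond within minutes to stimuli that include tissue handling, gave 1 call in each direction. Dusp1, a phosphatase of MAP kinases, was at 8.24, 8.30, 8.25 and 8.23 in NC and at 7.42, 7.93, 7.46 and 7.37 in DM_AngIV, a fall of 0.71 ± 0.14 (SE; limma adjusted p = 0.0236), whereas Ier3 rose by 0.74 ± 0.16 (limma adjusted p = 0.0358). Of 24 genes these 2 passed, 19 had a negative value and the median was −0.22, where 1.02% of all genes were called. Egr1 and Nr4a3 had −0.88 and −1.43 (limma adjusted p = 0.166 and 0.227). Dusp1 passed only without DM_AngIV 2 (otherwise up to 0.0813) and Ier3 only without NC 3 or NC 4 (otherwise up to 0.118). In the endoplasmic reticulum stress list, Herpud1, which helps to clear misfolded proteins, rose by 1.09 ± 0.17, from between 8.89 and 9.16 to between 9.67 and 10.60 (limma adjusted p = 0.00834), and passed without any 1 array. It was the only call among 20 genes, beside 1.02% called over all genes, and the chaperone Hspa5 had −0.52 (limma adjusted p = 0.0772).

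Across the 38 process lists the medians ran from −0.34 for collagens to 0.80 for the GTPases. No gene passed in the lists of acyl-CoA thioesterases and uncoupling proteins, ketone body metabolism, cholesterol and fatty acid synthesis, heat shock chaperones, antioxidant enzymes or cardiac ion channels, with medians of 0.24, −0.22, −0.16, −0.12, −0.02 and 0.09. In the complement list the only call, C2, was below background in both groups. Over the 14 cell type marker lists together, 1 of 142 genes passed, Col3a1, and the median was −0.01. Ventricular and smooth muscle lists had medians of 0.00 and 0.05, and endothelial markers had 0.22, with 10 of 13 values positive.

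**Figure D5:**
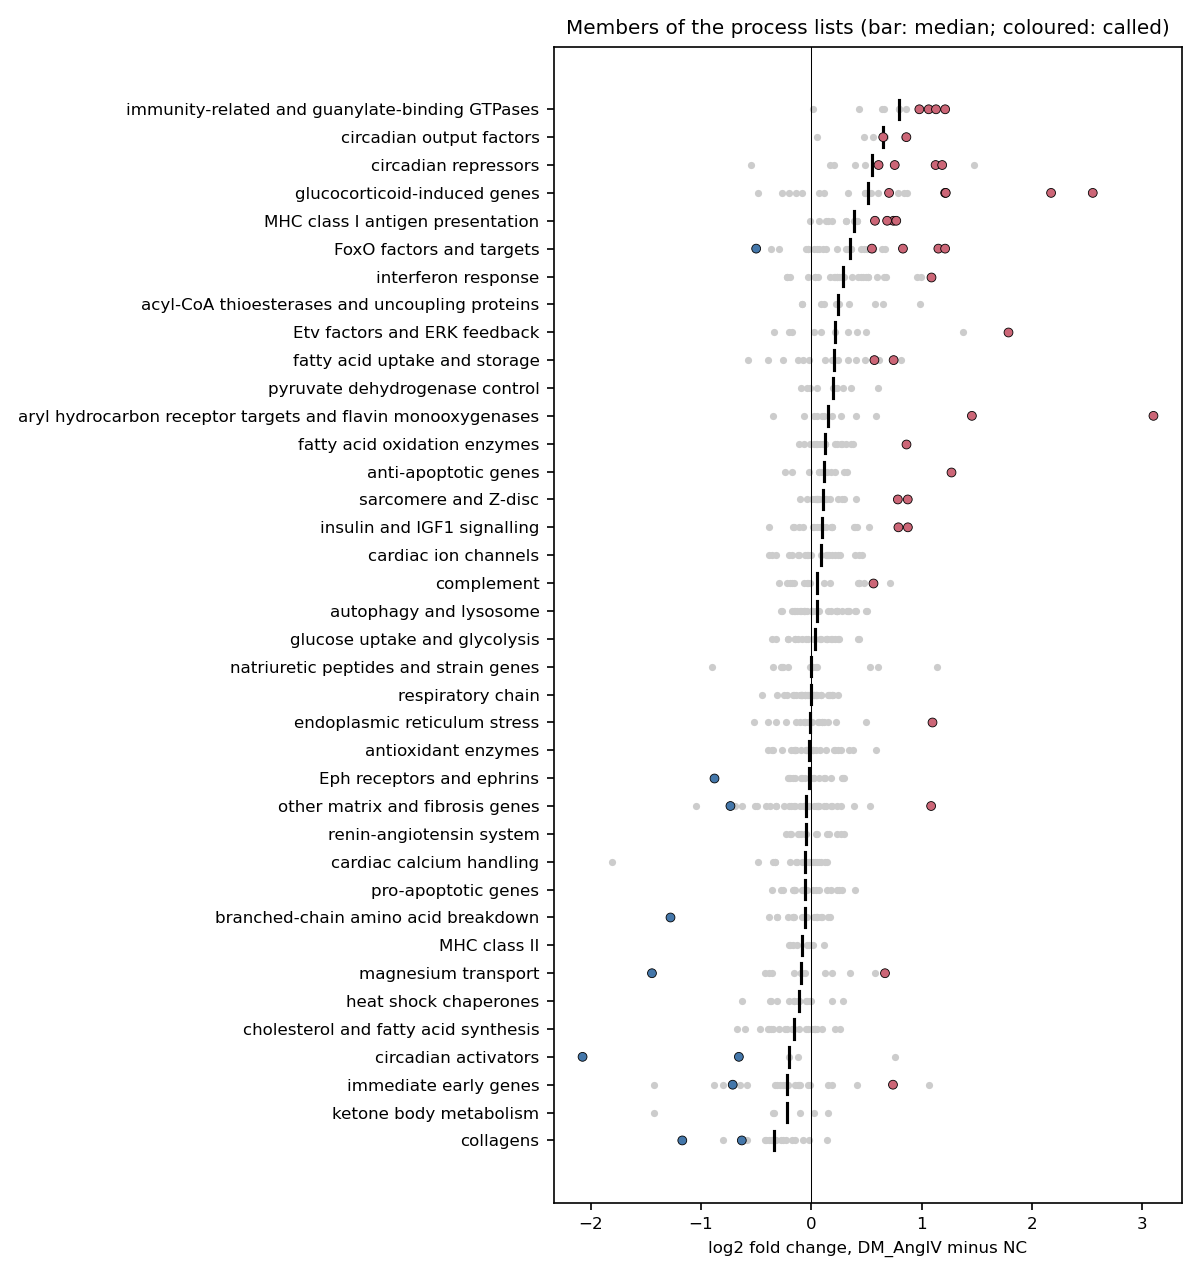
Log2 fold change of DM_AngIV minus NC (x axis) for each measured gene of the 38 process lists (y axis, ordered by median); black bars are list medians, red and blue points are genes called higher and lower, and grey points are genes not called. GTPases, clock output and repressor genes and glucocorticoid-induced genes lie at the top and collagens at the bottom.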

How the data were processed

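Myocardial RNA of 12 mice, 4 per group, had been hybridised to 1-colour whole-transcript arrays. The deposited values are log2 signals that the authors made by robust multi-array averaging (RMA), per the submitters' processing notes. For its version and annotation, nothing was given in the sources used here. Of 29129 probe sets, 19572 carried 1 gene symbol, 2634 gene probe sets carried none and 6923 were controls. Symbols came from the platform annotation, all matched a RefSeq gene table (GRCm38.p6), and the probe set with the highest mean stood for each of 55 genes with several.

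limma 3.58.1 (R 4.3.3) was fitted to all 12 arrays with 3 groups, which share 1 estimate of spread, with Benjamini-Hochberg adjustment over 19505 genes; calls have adjusted p below 0.05. The script was tested on simulated data. Where no array of a group exceeded the background percentile, an at-least fold is given: the bright group's mean against the dim group's mean of, per array, the higher of that percentile and the gene's own value. Differences are log2 values with the SE of the fit, and limits beside a gene are adjusted p-values of fits that left out 1 array. Numbers of the arrays did not pair the groups.

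Named genes are the 12 largest rises and 12 largest falls among called, non-overlapping genes other than predicted ones, the 2 members of each list with the smallest unadjusted p, and fixed genes of the study's themes, of which 15 of 18 were measured and the others are not analysed here. Further list members are named with their values known. Members and lists (52, with 877 entries) were chosen with earlier results of these data known. Alternatives covered the threshold, the arrays in the fit, a replicate block, filters, probe set choice, scaling, array weights, the variance prior, atrial signal and leaving out arrays. Figures used Python 3.11.15 and matplotlib 3.10.9.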

Additional observations from a re-analysis of the deposited data

Results flagged for a closer look

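Of 246 groups of 4 arrays tested over the named genes, 12 held an array that stood far from the other 3 by Dixon's test at the 95% level; chance flags about 1 in 20 groups. In DM_AngIV 1, Col3a1 was at 6.63 (the others 5.73 to 5.88), the ketone body enzyme Bdh1 at 7.56 (5.86 to 5.93), the granule gene Ngp at 2.92 (2.33 to 2.41, all below background) and the haem synthesis gene Alas2 at 6.20 (5.60 to 5.66). In DM_AngIV 2, Dusp1 was at 7.93 (7.37 to 7.46) and Foxo1 at 5.25 (5.72 to 5.73). In DM_AngIV 4, the calcium store genes Casq2 and Jph2 were lowest at 9.66 (9.81 to 9.82) and 7.42 (7.65 to 7.69), and Prcp at 4.47 (4.76 to 4.82, below background). Among NC arrays, Slc16a7 was at 5.65 in NC 3 (4.98 to 5.05), Sqstm1 at 9.09 in NC 2 (9.28 to 9.30) and Apaf1 at 4.08 in NC 4 (3.71 to 3.72, below background). Probe sets without a gene name were also tested, in a fit over 22206 gene probe sets: 18 of 2634 passed, 15 higher and 3 lower, or 0.683% (limma).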

How the results depend on the processing

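At the reported setting 198 genes passed, 142 higher and 56 lower. At an adjusted p below 0.10 there were 509 (349 higher, 160 lower). Testing only genes above the median gave 504 (354 and 150), only genes above background on at least 4 arrays 567 (398 and 169), and a variance prior with trend and robust 514 (356 and 158), where Cyp1a1, Fkbp5, Fmo2, Bcl2l1 and Sult1a1 lost their calls. Leaving out 1 array at a time gave 81 to 167 genes, 52 to 115 higher and 22 to 52 lower. Without all arrays with atrial signal there were 50 (39 and 11), and without the NC arrays with it, a setting chosen after seeing the data, 23 (18 and 5). With the replicate number as a block 115 passed (82 and 33), 99 of them shared; same-numbered arrays of the groups had deviations correlated at −0.01, 0.17, −0.10 and 0.05, and 1 of 4 correlated best with its own number, so the numbers give no pairing. Using only the 8 arrays of both groups, centring, quantile normalization, array weights, the mean of probe sets and the atrial covariate gave 158 to 245 genes. Of the 198 genes, those tested in each of these settings kept their sign. Low signal limits dim genes: 39.0 to 45.6% of genes exceeded background per array.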

Other observations

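The following called genes were grouped after their values were seen and belong to no list above (limma, adjusted over all genes; log2 differences of DM_AngIV minus NC). Lrrc10, a leucine-rich repeat protein of heart muscle, was at 7.77, 7.61, 7.62 and 7.96 in NC and between 8.86 and 9.01 in DM_AngIV, a rise of 1.21 ± 0.14 (limma adjusted p = 0.00130). The groups were tight and lay far apart. Adcy6, an adenylyl cyclase of heart muscle, rose by 0.99, and Eef2k, the kinase that slows translation elongation, rose by 0.84. Abcg2, an efflux transporter, rose by 0.95, and Ezh1, a histone methyltransferase, by 0.58. Spon2, a secreted matrix protein, was at least 1.09-fold lower with no DM_AngIV array above background (means 5.09 and 4.13; limma adjusted p = 0.00976), and falls were found in the integrin subunit gene Itgb6, which fell by 0.84, and the lysosomal amino acid sensor Slc38a9, which fell by 0.60. These 8 genes passed without any 1 array.

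Some further calls were less stable. Cirbp, the cold-inducible RNA-binding protein, rose by 0.80 and lost its call without DM_AngIV 3 (limma adjusted p = 0.0510). Trim21, an antibody receptor of the cytosol induced by interferon, was called higher but was below background in both groups, so no fold is given, and lost its call without NC 2, DM_AngIV 3 or DM_AngIV 4 (limma adjusted p up to 0.0715). Slc1a5, a glutamine transporter, rose by 0.71 and lost it without NC 2 or DM_AngIV 3 (limma adjusted p up to 0.0694).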
